A study of Rattus norvegicus with 6 samples.

Results

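The results below concern miR-21, a microRNA (miRNA) gene whose hairpin gives the mature strands rno-miR-21-5p and rno-miR-21-3p. They are 2 of the 693 miRNAs listed for rat lung. The pair was selected on its measured values, because the mean of the 5p arm was lower and that of the 3p arm higher after ischemia reperfusion, so the levels and the arm ratio of miR-21 are given as a description, with no p and no test of them as support. Small RNA was sequenced from the lungs of 3 rats after ischemia reperfusion (IR) and of 3 sham-operated rats, 1 library each. All were male Sprague-Dawley rats of 7 to 8 weeks. IR rats had the hilum of the left lung clamped for 45 min before blood flow was restored, whereas sham rats had the chest opened without clamping. How long reperfusion lasted is not stated in the sources used here. The libraries held 3775663 (IR replicate 2) to 11248166 miRNA reads (IR replicate 3).

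A miRNA hairpin is cut by Drosha in the nucleus and Dicer in the cytoplasm into a short duplex. One strand, the guide, is kept by an Argonaute protein and pairs through its seed with target mRNAs, and the other strand, the passenger, is mostly degraded. In miR-21 the guide is the 5p arm. It is among the most abundant miRNAs of many tissues, its transcription is driven by AP-1 and STAT3 in human and mouse cells, and it is known for rising in injured and fibrotic lung, where its targets include the translation inhibitor PDCD4.

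The mature strands are shown because the comparison below is between them, with the seed (bases 2 to 8) in capitals, from RefSeq (GRCr8).
rno-miR-21-5p: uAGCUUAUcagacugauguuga
rno-miR-21-3p: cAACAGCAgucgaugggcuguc
The hairpin follows with both mature strands in capitals. It lies at chr10:71902600-71902691 on the minus strand of GRCr8.
Mir21: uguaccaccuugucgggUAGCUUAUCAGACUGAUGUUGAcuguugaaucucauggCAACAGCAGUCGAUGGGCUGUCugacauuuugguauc
The hairpin is 92 nt long, with the 5p strand at positions 18 to 39, the 3p strand at positions 56 to 77 and 16 nt between them. RNAfold gave it a minimum free energy of -42.6 kcal/mol with 19 base pairs between the mature strands. The first 4 bases of each strand are all paired in that fold, with 2 G-C pairs in each. The 5p strand begins with U and the 3p strand with C. Among 97 hairpins of this data set with both sequences at hand, the more abundant arm began with U in 56.7% and the rarer arm in 23.7%.

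Both arms come from a single gene in the RefSeq table. Neither seed occurred in any of the other 692 mature rat miRNAs there (0 matches for each arm), so no seed family could be compared. The nearest other mature sequence was 7 edits away for the 5p arm (miR-101a-5p) and 8 edits for the 3p arm (miR-497-5p). In that annotation no other gene overlaps Mir21, and the nearest gene on the side of its 5′ end is Vmp1, 531 bases away, a gene of autophagosome formation. mRNA was not analysed here, so neither the primary transcript nor any target was measured.

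rno-miR-21-5p was one of the most abundant miRNAs of the lung in both groups. It took 9.79%, 12.98% and 9.66% of all miRNA reads in IR replicates 1, 2 and 3, against 13.5%, 12.3% and 24.2% in sham replicates 1, 2 and 3. Sham replicate 3 stood apart, and the other 5 libraries lay between 9.66% and 13.5%. Only miR-143-3p, a miRNA of smooth muscle, and miR-126a-3p, a miRNA of endothelium, exceeded it anywhere. miR-143-3p ranked above it in every library except sham replicate 3, where miR-21-5p ranked 1st with 2494717 reads and miR-143-3p took 11.0%. miR-126a-3p exceeded it in IR replicate 3, at 10.4% of reads.

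On counts per 1000000 reads (CPM) after TMM scaling, which corrects for a few abundant miRNAs taking up reads, rno-miR-21-5p was at 93145, 139652 and 91566 in IR replicates 1, 2 and 3. It was at 126455, 116753 and 279439 in sham replicates 1, 2 and 3. The groups overlapped, since IR replicate 2 lay above sham replicates 1 and 2. The mean was 108121 ± 27318 after IR and 174216 ± 91255 in sham (SD, n = 3 each), a log2 ratio of -0.69. The difference of the means was smaller than the SD of the sham libraries. Without sham replicate 3 the log2 ratio was -0.18, and it was -0.92 without IR replicate 2. In sham replicate 3 the level was 2.30 times the mean of the other sham libraries. With miR-21-5p itself taken out of the library size, the 5p reads were 108579, 149102 and 106945 per 1000000 other miRNA reads in IR replicates 1, 2 and 3, against 155451, 140054 and 319518 in sham replicates 1, 2 and 3. Sham replicate 3 was highest on this scale too. In bulk lung, fewer cells of a type and less RNA per cell cannot be told apart.

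rno-miR-21-3p was a rare strand, ranking 238th to 328th of the 693 miRNAs. It had 161, 17 and 174 reads in IR replicates 1, 2 and 3, against 41, 52 and 70 reads in sham replicates 1, 2 and 3. In TMM-normalized CPM it was at 24.3, 4.85 and 14.7 in IR replicates 1, 2 and 3, against 5.17, 4.61 and 7.84 in sham replicates 1, 2 and 3. IR replicates 1 and 3 lay above all sham libraries and IR replicate 2 lay among them. The mean was 14.6 ± 9.73 after IR and 5.87 ± 1.73 in sham (SD, n = 3 each), a log2 ratio of 1.31. With IR replicate 1 left out it was 0.69, and with IR replicate 2 left out 1.72.

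**Figure D1:**
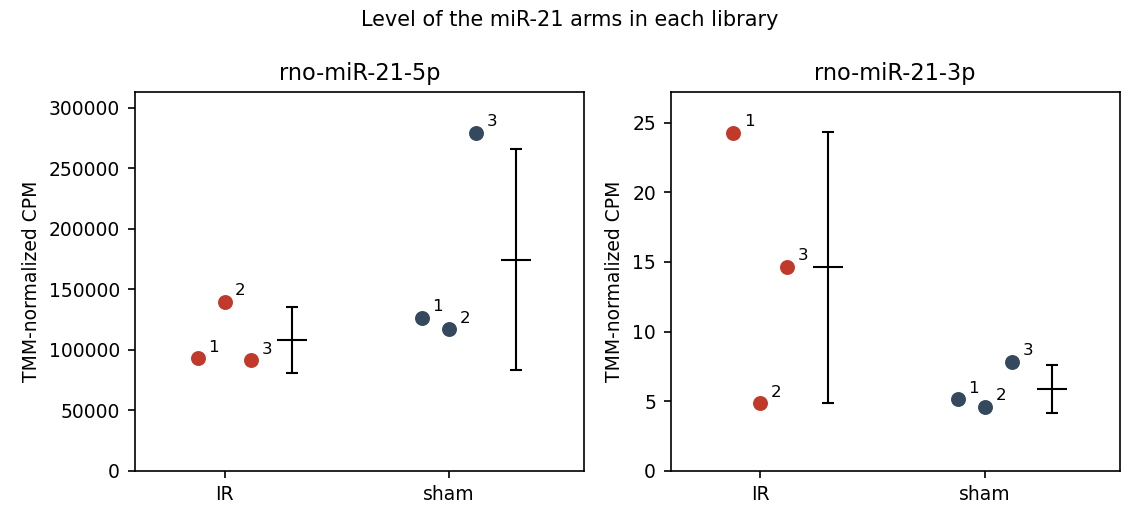
Level of rno-miR-21-5p (left) and rno-miR-21-3p (right) in TMM-normalized counts per 1000000 reads, 1 point per library with its replicate number, IR left of sham, and the mean with its SD (n = 3) as a bar beside the points. The groups overlap in both panels, with sham replicate 3 high for the 5p arm at 279439 and IR replicate 2 low for the 3p arm at 4.85.

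The opposite directions therefore held for the group means but not for every library. The difference in the 5p means rested mainly on sham replicate 3, and the difference in the 3p means rested on IR replicates 1 and 3. The groups overlapped in level for both arms, whereas they did not overlap for 34.0% of the 418 miRNAs tested.

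The spread of the 3p arm was set beside that of miRNAs of similar level. Among the 72 tested miRNAs within 2-fold of the mean level of rno-miR-21-3p, its ratio of the highest to the lowest IR library, 5.01, was the largest, where the median was 1.56. Over the sham libraries its ratio was 1.70, and 31 of the 72 had a ratio at least as large. For rno-miR-21-5p the ratio over the sham libraries was 2.39, reached by 9 of the 168 miRNAs with a mean of at least 100 CPM, most of which are far less abundant. Each arm thus varied most in a different group.

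The ratio of the arms within a library needs no scaling between libraries. Per 100000 reads of both miR-21 arms, the 3p arm had 26.1 reads in IR replicate 1 (95% exact interval 22.2 to 30.4), 3.47 in IR replicate 2 (2.02 to 5.56) and 16.0 in IR replicate 3 (13.7 to 18.6). It had 4.08 in sham replicate 1 (2.93 to 5.54), 3.95 in sham replicate 2 (2.95 to 5.18) and 2.81 in sham replicate 3 (2.19 to 3.55). IR replicates 1 and 3 lay outside the intervals of all sham libraries and IR replicate 2 lay inside the range of the sham libraries. The reads carry no molecular identifiers, so these intervals cover counting error only.

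**Figure D2:**
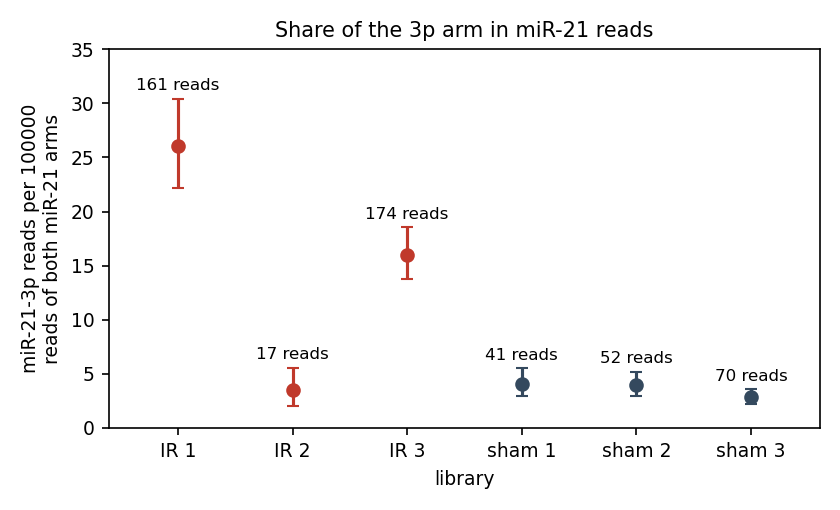
Reads of rno-miR-21-3p per 100000 reads of both miR-21 arms (vertical axis) in each library (horizontal axis), IR in red and sham in blue, with 95% exact (Clopper-Pearson) intervals and the number of 3p reads above each point. IR replicates 1 and 3 are at 26.1 and 16.0, above the sham libraries at 2.81 to 4.08, and IR replicate 2 is at 3.47.

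The arm shares can be put in reads. At the share of the pooled sham libraries, the 5p reads of IR replicate 1 would go with 20.9 reads of the 3p arm, and 161 were counted. IR replicate 3 would have 36.8, and 174 were counted. IR replicate 2 would have 16.6, and 17 were counted. The mean share was 15.2 ± 11.3 after IR and 3.61 ± 0.702 in sham (SD, n = 3 each). On the log2 scale the ratio of 5p to 3p reads, with 0.5 added to each, was 11.90, 14.77 and 12.60 in IR replicates 1, 2 and 3, against 14.56, 14.61 and 15.11 in sham replicates 1, 2 and 3. The difference of the means was -1.67, where a negative value is a shift toward the 3p arm in IR. Leaving out IR replicate 1 gave -1.07, and leaving out IR replicate 2 gave -2.51.

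The shift was set beside that of every hairpin with 60 or more reads on each arm, 112 in all. miR-21 had the second lowest share of its rarer arm (0.00735% over the 6 libraries, where the median hairpin had 5.50%), after miR-26a. Its shift toward the 3p arm was the largest of the 112, and its absolute shift was second to that of miR-132. Among all 112 the median shift was 0.02 and the median absolute shift 0.24, and 52 shifted toward the 3p arm. With limma on the log2 arm ratios 0 of 112 hairpins (0%) had an adjusted p under 0.05 (9 at an unadjusted p under 0.05), and edgeR's test of the interaction of arm and group also called 0 (12 unadjusted). The IR and sham libraries did not overlap for 18 of 112 hairpins (16.1%), and for miR-21 they overlapped.

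**Figure D3:**
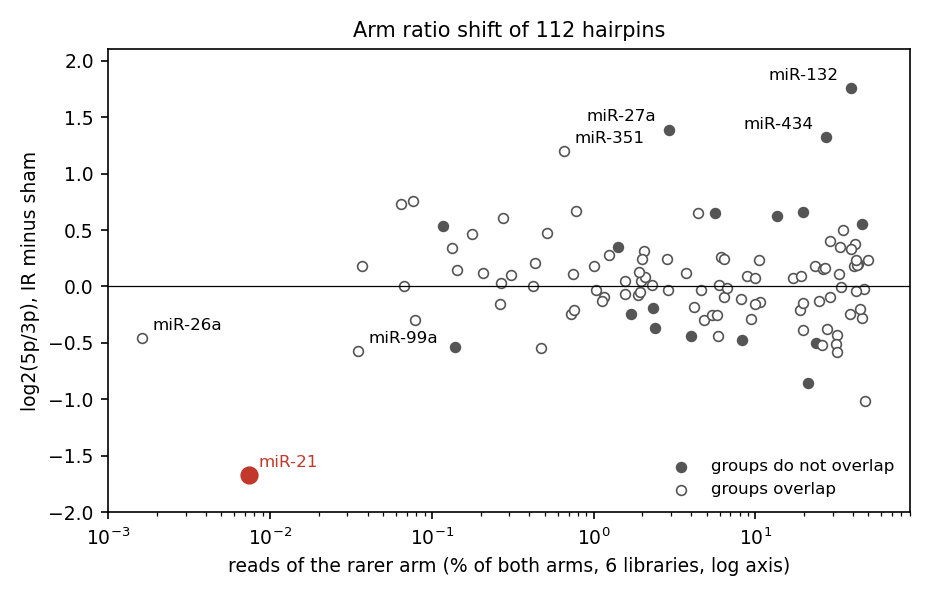
Difference of log2(5p/3p), IR minus sham (vertical axis), against the reads of the rarer arm as a percentage of both arms over the 6 libraries (horizontal log axis), 1 point per hairpin for 112 hairpins. Filled grey points are hairpins whose IR and sham libraries do not overlap, open points those whose libraries overlap, and miR-21 (red, libraries overlapping) is at -1.67, the lowest value plotted.

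Other hairpins with a rare 3p arm did not share the shift of miR-21 in size. The nearest by share were miR-26a, with 61 reads of the 3p arm over the 6 libraries, miR-99a, miR-16, miR-191a and miR-30d. Their differences were -0.46, -0.57, 0.73, 0.01 and 0.53. Among the 28 hairpins whose rarer arm had under 1% of reads, the rarer arm was relatively higher after IR in 11, with a median shift of -0.07 toward it. Medians over hairpins in each library are given beside the values of miR-21. A median over many hairpins moves less than a single hairpin selected for its shift, so the difference in size decides nothing. On log2(rarer/more abundant arm) centred on each hairpin's mean, the median of the 112 was 0.07, -0.05 and 0.06 in IR replicates 1, 2 and 3, where miR-21 was at 2.03, -0.85 and 1.32. In sham replicates 1, 2 and 3 the median was -0.03, 0.03 and -0.03, where miR-21 was at -0.63, -0.69 and -1.18. For the 28 rarest alone the median was 0.10, -0.33 and 0.23 in IR replicates 1, 2 and 3, against 0.09, 0.15 and -0.11 in sham replicates 1, 2 and 3. IR replicate 1 was thus near sham replicates 1 and 2 on this median, and IR replicate 2 was the lowest of the 6 libraries. The part of depth in this was not tested, and IR replicate 2 was the shallowest library.

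The largest shifts toward the 5p arm were those of miR-132 (1.76), miR-27a (1.39), miR-434 (1.32), miR-351 (1.20) and miR-200c (0.76). After miR-21, those toward the 3p arm were miR-325 (-1.02), miR-361 (-0.86), miR-708 (-0.58) and miR-99a (-0.57). Several rest on few reads, and the 3p arm of miR-351 had 0 in IR replicate 2. Arms moving in opposite directions were not particular to miR-21. The log2 fold changes of the 5p and 3p arms were -0.58 and 0.31 for miR-361, and 0.92 and -1.15 for miR-132. edgeR called none of these arms, but the arm ratios of both hairpins did not overlap between the groups.

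The miRNAs whose pattern over the 6 libraries was nearest to each arm were found by the root mean square difference of log2(CPM + 1), centred on each miRNA's mean, among miRNAs of at least 100 CPM. For rno-miR-21-3p the nearest of 168 was miR-27a-5p, also the rarer arm of its hairpin, at 0.32 log2 units, where the median distance was 0.87. miR-27a-5p was at 345, 115 and 224 normalized CPM in IR replicates 1, 2 and 3, against 57.0, 89.6 and 127 in sham replicates 1, 2 and 3. It shared the order of the IR libraries, with IR replicate 1 highest and IR replicate 2 lowest. The next were miR-672-5p at 0.63, miR-125b-2-3p at 0.63, miR-374-5p at 0.68 and miR-375-3p at 0.68. Of these 5, edgeR called none (44 of all 418 tested). DESeq2, which called 13.7% of the 505 it tested, called miR-27a-5p. The 5 were picked for likeness to an arm selected on this contrast, so neither a shared order nor these calls are support.

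For rno-miR-21-5p the nearest of 167 was miR-340-5p at 0.24 log2 units, where the median was 0.54. It was followed by miR-20a-5p and miR-142-3p (0.25 each), miR-451-5p (0.30) and miR-339-5p (0.31). Of these 5, edgeR called none (44 of all 418 tested). DESeq2, which called 13.7% of the 505 it tested, called miR-142-3p and miR-339-5p. All 5 had their highest level in sham replicate 3, as rno-miR-21-5p did. They were picked for likeness to it, so neither the shared peak nor the calls are support. The arms of miR-21 were far from each other, at 1.15 log2 units. The pair was selected for opposite directions in these libraries, so this distance is no support.

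**Figure D4:**
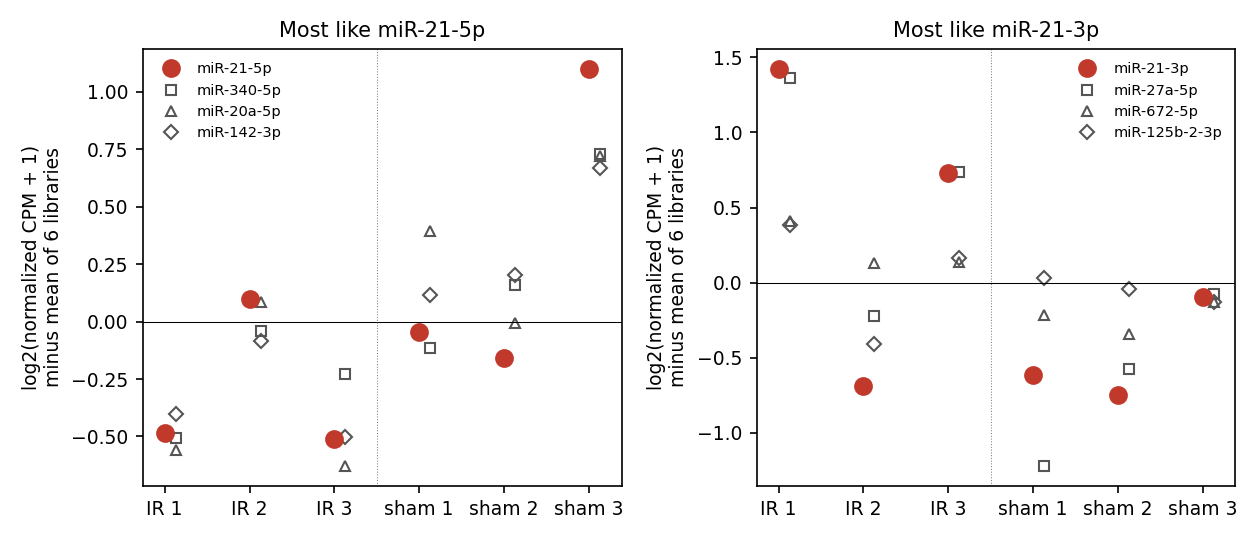
log2(normalized CPM + 1) minus its mean over the 6 libraries (vertical axis) in each library (horizontal axis) for rno-miR-21-5p (left) and rno-miR-21-3p (right) in red and the 3 miRNAs nearest to each in grey. miR-27a-5p follows rno-miR-21-3p at 0.32 log2 units, and the miRNAs nearest to rno-miR-21-5p are all highest in sham replicate 3. The grey miRNAs were picked for this likeness.

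Sham replicate 3 also held more of some blood cell miRNAs. Of the 168 miRNAs with at least 100 CPM, those with the largest ratio of sham replicate 3 to the mean of the other sham libraries were miR-223-5p of myeloid cells (2.99), the erythroid miR-486 (2.60) and miR-451-5p (2.53), miR-21-5p (2.30) and the myeloid miR-223-3p (2.11). The median ratio was 1.06. The summed level of 4 erythroid miRNAs was 1493 to 2155 normalized CPM in the IR libraries, against 1233, 2019 and 4048 in sham replicates 1, 2 and 3. Their part in the level of rno-miR-21-5p was not tested.

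Short marker lists for the cell types of the lung were looked at as a description, and they do not measure the cell makeup. Over the whole table, edgeR's quasi-likelihood test at an adjusted p under 0.05 called 7.89% of the 418 tested miRNAs higher and 2.63% lower. That made 44 in all. That count fell to 24, 17 and 2 without IR replicate 1, 2 or 3 and to 21 without sham replicate 3. In either direction, 26.3% had an unadjusted p under 0.05, and DESeq2 called 13.7% of the 505 miRNAs it tested. Of 5 leukocyte miRNAs (miR-142, miR-150, miR-223 and miR-342) 1 was lower and 0 were higher (3 at an unadjusted p under 0.05 and 2 with DESeq2, in either direction), and all 5 were detected. Their median log2 fold change was -0.67, where that of all tested miRNAs was -0.01. The call was miR-150-5p of lymphocytes, at 855 ± 139 after IR and 1454 ± 67.0 normalized CPM in sham (SD, n = 3 each; adjusted p = 0.0229 from edgeR). The summed leukocyte level was 2412 to 2675 normalized CPM in the IR libraries and 3357 to 4506 in the sham libraries, with no overlap. Taken singly, 34.0% of the 418 tested miRNAs did not overlap either. The erythroid list had 0 of 4 called (2 at an unadjusted p under 0.05 and 0 with DESeq2), with a median of -0.93. The 5 epithelial miRNAs of the miR-200 family had 0 called (2 unadjusted and 1 with DESeq2, in either direction), with summed levels of 18672 to 19222 after IR and 12889 to 15882 in sham, also without overlap. The endothelial miR-126a arms were at -0.03 and -0.01 on the log2 scale (0 called, 0 unadjusted and 0 with DESeq2) and the summed list at 83153 to 105378 after IR and 88065 to 111213 in sham. Of 5 miRNAs of smooth muscle and fibroblasts, 1 was lower (miR-199a-3p) and 0 were higher (3 unadjusted and 2 with DESeq2, all lower). The summed levels, mostly miR-143-3p, were 143102 to 162912 after IR and 136421 to 166242 in sham. On the log2 scale miR-143-3p and miR-145-5p were at -0.01 and 0.04, with overlap. miR-199a-5p, miR-199a-3p and miR-214-3p were at -0.42, -0.65 and -0.73, without overlap, as for 34.0% of the 418 tested miRNAs. The part of these cell types in the miR-21 levels was not tested.

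miR-21-5p is usually grouped with miRNAs that respond to inflammation or hypoxia. Of 10 tested members of such a list other than miR-21, 0 were higher and 1 was lower with edgeR (3 at an unadjusted p under 0.05 and 2 with DESeq2, all lower), with a median log2 fold change of -0.07. Over all tested miRNAs, edgeR called 7.89% higher and 2.63% lower. In either direction, 26.3% had an unadjusted p under 0.05 with edgeR, and DESeq2 called 13.7%. The edgeR call was miR-146a-5p, which NF-κB induces and which dampens that pathway in turn, at 830 ± 35.4 after IR and 1492 ± 362 normalized CPM in sham (SD, n = 3 each; adjusted p = 0.0247 from edgeR, log2 fold change -0.85 with a standard error of 0.18). Its close relative miR-146b-5p, the most abundant of the list, was at 11014 ± 3481 after IR and 9019 ± 1816 in sham without passing the test. The vascular miR-221-3p and miR-222-3p were at -0.23 and 0.24, the NF-κB target miR-155-5p at 0.24 and the hypoxia miRNA miR-210-3p at -0.03 on the log2 scale, none past the threshold. miR-132-3p, induced through CREB, was at 9.94 ± 0.69 after IR and 22.1 ± 13.9 in sham, also without passing. miR-147, called by DESeq2 (adjusted p = 0.0117) but not by edgeR, was at 25.3 ± 4.63 after IR and 57.4 ± 29.0 in sham. The groups did not overlap for miR-132-3p and miR-147, as for 34.0% of the 418 miRNAs tested.

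Of 14 miRNAs associated with TGF-β signalling and fibrosis, the setting in which miR-21 is best known in lung, 0 were higher and 2 were lower with edgeR, with a median log2 fold change of -0.01. At an unadjusted p under 0.05, 3 were higher (miR-29a-3p, miR-29b-3p and miR-29c-3p) and 5 were lower. DESeq2 called 3 (miR-92a-3p, miR-18a-5p and miR-214-3p), all lower. The shares over all tested miRNAs were 7.89% higher and 2.63% lower with edgeR. They were 26.3% at an unadjusted p under 0.05 and 13.7% with DESeq2, in either direction. Those called lower by edgeR were miR-92a-3p (-0.73) and miR-18a-5p (-1.54), both of the miR-17 to miR-92 cluster, with adjusted p = 0.0203 and 0.0229 from edgeR. Of the same cluster and list, miR-17-5p was at -0.72 and miR-19b-3p at 0.06, and edgeR called neither. The antifibrotic miR-29a-3p, whose targets include collagens, was at 5101 ± 198 after IR and 3566 ± 848 normalized CPM in sham without passing the test. Its groups did not overlap, as for 34.0% of the 418 miRNAs tested. miR-143-3p was at 144293 ± 10574 after IR and 144857 ± 16064 in sham.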

How the data were processed

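Small RNA of rat lung was sequenced in 3 IR and 3 sham libraries. The deposited table gives, for each miRNA, whole read counts and TPM values, the second being the counts scaled by the authors to 1000000 miRNA reads per library without regard to length. Bowtie is named in the submitters' processing notes. For the build, annotation and counting rule nothing was given in the sources used here. The labels name no separate cultures or dates, and the libraries of a group were treated as separate animals.

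Counts were tested in R 4.3.3 with edgeR 4.0.16 (filterByExpr with a minimum count of 10 and minimum total of 15, TMM, quasi-likelihood test, Benjamini-Hochberg adjusted p under 0.05), with DESeq2 1.42.0 as an alternative. Arm ratios used limma 3.58.1 with a trend. Hairpins were paired by name and needed 60 reads per arm. Folds came from ViennaRNA 2.7.2 and figures from matplotlib 3.10.9. Of the 693 miRNAs listed, 570 matched a RefSeq mature sequence. Some miRNAs were listed with the same or nearly the same levels under different names, and some hairpins mirrored each other. The shares over all miRNAs or hairpins are therefore not over independent members. At these depths 3 reads equal 0.267 to 0.795 TPM. Scripts were tested on simulated data.

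The members and lists were chosen with earlier results of these data known. The text names both arms, miRNAs exceeding the 5p arm, the 5 nearest to each arm in pattern, the 5 hairpins with the largest shift in each direction, the 5 nearest in 3p share, the 5 highest in sham replicate 3, and at most 4 members of each list, by abundance. miR-155-5p, miR-210-3p, miR-132-3p, miR-147, miR-29a-3p, miR-29b-3p, miR-29c-3p, miR-214-3p, miR-92a-3p and miR-18a-5p were named after their values were seen. Alternatives were other scalings, filters, pseudocounts and tests, the replicate block, and leaving out each library.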

Additional observations from a re-analysis of the deposited data

How the results depend on the processing

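The log2 ratio of rno-miR-21-5p, IR against sham, was -0.92 to -0.18 with 1 library left out and -0.67 to -0.44 with RLE scaling, total counts, TMM without miR-21 or medians. That of rno-miR-21-3p was 0.69 to 1.72 with 1 library left out and 1.32 to 1.50 under those settings. The difference of the arm ratio was -2.51 to -1.07 with 1 library left out and -2.24 from summed reads. None of these values changed sign. The pair was selected for these directions in the same libraries, so the kept signs are no support. Without both IR replicate 2 and sham replicate 3, an alternative chosen after seeing the data, the values were -0.37, 2.03 and -2.34.

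The count of called miRNAs, 44, became 26 with 10 reads required in every library, 69 with DESeq2 and 2 to 57 with 1 library left out (24, 17 and 2 without IR replicate 1, 2 or 3, 21 without sham replicate 3 and 57 without sham replicate 2). With the replicate number as a block edgeR called 0 (84 at an unadjusted p under 0.05). Same-numbered libraries did not deviate together (r across miRNAs -0.23, -0.39 and -0.18). These values gave no sign of pairing by number, but so few libraries cannot exclude it. In this balanced design the block cannot change the arm ratio difference of miR-21 (-1.67), so that value is no check. The called hairpins stayed at 0 with the block (6 at an unadjusted p). The count of called hairpins was 0 to 3 with 1 library left out, and 3 only without IR replicate 2 (miR-132, miR-27a and miR-21, the last selected on this measure, so that its call supports nothing). The causes were not tested. The 3p arm rests on 17 to 174 reads per library, which limits its precision in IR replicate 2.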
